A study of Mus musculus with 12 samples.

Results

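The insulin-like growth factor (IGF) system was described through 10 genes of the 28908 symbols on the array: the ligands Igf1 and Igf2, the receptors Igf1r and Igf2r, and the binding protein genes Igfbp2 to Igfbp7. The members were all probes that carry one of these symbols in the deposited annotation, 23 probes in all, and 19 of them passed the filter on dim probes and were tested. RNA came from 12 mouse medulloblastomas of the Sonic hedgehog (SHH) subgroup, hybridised to Illumina BeadChips in 3 groups of 4. The A1G metastatic and A1G primary groups were metastatic and primary tumours with the genotype Math1-cre;A1G;Ptch1+/-, and the Ptch1het group held primary tumours with the genotype Ptch1+/-. All 12 tumours thus shared the heterozygous loss of Ptch1, the SHH receptor that holds the pathway in check, and the A1G groups also carried Math1-cre, a Cre driven by regulatory sequences of Math1 (Atoh1), a transcription factor of granule neuron progenitors. What A1G stands for, the age of the mice and where the metastases grew are not in the labels, and the genotype entry of metastatic replicates 2 and 3 is phrased unlike that of replicates 1 and 4. Nothing states that replicates were separate animals, so the p-values cover only the spread among these samples, which may be technical.

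Igf1 and Igf2 are secreted growth factors that act through the receptor tyrosine kinase Igf1r, and Igf2 is removed from the cell surface by Igf2r, the cation-independent mannose 6-phosphate receptor. Related binding proteins carry these ligands outside the cell, and proteases that cut the binding proteins release them. Igf2 is imprinted and expressed from the paternal allele in most tissues, and it is known as a growth factor of SHH medulloblastoma in Ptch1 heterozygous mice.

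The promoters of the 4 binding protein genes that passed between metastatic and primary A1G tumours are shown with that of Igf2, a ligand that stood higher in every metastatic than in every primary A1G tumour. Igfbp2 and Igfbp5 are adjacent genes on chromosome 1, with 0 annotated genes between them, and differed in opposite directions. Each window holds the 250 bases before 1 annotated transcript start, from RefSeq on GRCm38.p6, on the strand of the gene (the most upstream start of Igfbp2 and the most downstream of Igf2, which have several). Capitals mark GGGCGG (the GC box) or TATAAA on either strand. The windows lie at chr1:72824230-72824479 (plus strand, Igfbp2), chr1:72874866-72875115 (minus strand, Igfbp5), chr15:102143936-102144185 (plus strand, Igfbp6), chr5:77408046-77408295 (minus strand, Igfbp7) and chr7:142657497-142657746 (minus strand, Igf2).
Igfbp2: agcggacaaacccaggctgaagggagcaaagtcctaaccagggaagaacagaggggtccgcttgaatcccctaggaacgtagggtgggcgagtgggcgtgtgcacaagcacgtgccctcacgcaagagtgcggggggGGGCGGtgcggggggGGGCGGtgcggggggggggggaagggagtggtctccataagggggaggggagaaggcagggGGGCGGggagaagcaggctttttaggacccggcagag
Igfbp5: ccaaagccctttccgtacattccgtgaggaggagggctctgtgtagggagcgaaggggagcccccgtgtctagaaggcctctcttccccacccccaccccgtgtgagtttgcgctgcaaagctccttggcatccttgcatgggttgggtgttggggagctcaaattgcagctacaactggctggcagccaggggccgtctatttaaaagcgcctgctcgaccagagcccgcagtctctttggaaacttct
Igfbp6: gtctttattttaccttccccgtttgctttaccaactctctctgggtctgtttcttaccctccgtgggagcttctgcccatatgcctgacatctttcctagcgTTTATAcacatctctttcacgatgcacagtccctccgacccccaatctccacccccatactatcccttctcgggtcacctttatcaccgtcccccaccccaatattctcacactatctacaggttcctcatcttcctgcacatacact
Igfbp7: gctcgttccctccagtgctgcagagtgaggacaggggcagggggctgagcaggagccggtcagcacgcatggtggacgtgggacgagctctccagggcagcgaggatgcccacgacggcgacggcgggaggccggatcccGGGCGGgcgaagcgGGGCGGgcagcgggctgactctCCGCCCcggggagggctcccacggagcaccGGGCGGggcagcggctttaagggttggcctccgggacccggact
Igf2: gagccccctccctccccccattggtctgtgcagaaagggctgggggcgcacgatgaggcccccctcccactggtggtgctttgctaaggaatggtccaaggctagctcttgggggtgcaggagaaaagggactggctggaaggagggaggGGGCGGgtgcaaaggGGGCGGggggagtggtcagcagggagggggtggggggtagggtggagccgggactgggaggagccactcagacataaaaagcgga
The GC box stood 3 times in the Igfbp2 window, 4 times in that of Igfbp7 and 2 times in that of Igf2, and 32.7% of 32851 promoter windows of this length hold it. The other annotated window of Igfbp2 held 0 GC boxes, and the other 3 windows of Igf2 held 1, 0 and 0. The Igfbp6 window held TATAAA on the opposite strand, a match found in 12.4% of all windows. The Igfbp5 window held neither. The E boxes CAGCTG (13.0% of windows) and CAGATG (14.4%) and the GLI site GACCACCCA (0.225% of windows) were in none of the 5. GC content was 67.2% for Igfbp2, 58.8% for Igfbp5, 49.6% for Igfbp6, 74.0% for Igfbp7 and 66.0% for Igf2. These matches describe the letters only, and no measurement here shows that a factor binds them.

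Between metastatic and primary tumours of the same A1G genotype, 6 of the 19 member probes passed, 5 higher and 1 lower, in 4 genes. Igfbp5, Igfbp6 and Igfbp7 rose and Igfbp2 fell, the last on its dimmer probe only, while Igf2 stood higher in every metastatic tumour without passing. With only the brightest probe of each gene, 3 of 10 members passed, without Igfbp2, against 873 of 16724 genes. A probe passed at a Benjamini-Hochberg adjusted p under 0.05 over all 24443 tested probes in limma, and 4.82% of all tested probes passed in this comparison (4.04% higher, 0.786% lower). In all, 11 member probes had an unadjusted p under 0.05. The groups did not overlap in 9 member probes, 8 higher and 1 lower, against 13.4% of all tested probes (6.69% higher, 6.7% lower). The median log2 difference over the member probes was 0.47, against -0.08 over all tested probes. Members were chosen with earlier results of these data known, which limits each contrast with all probes here and below. Igfbp5 counts with 3 probes. Levels below are log2 intensity, set side by side between arrays for 1 probe at a time and never between probes.

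**Figure D1:**
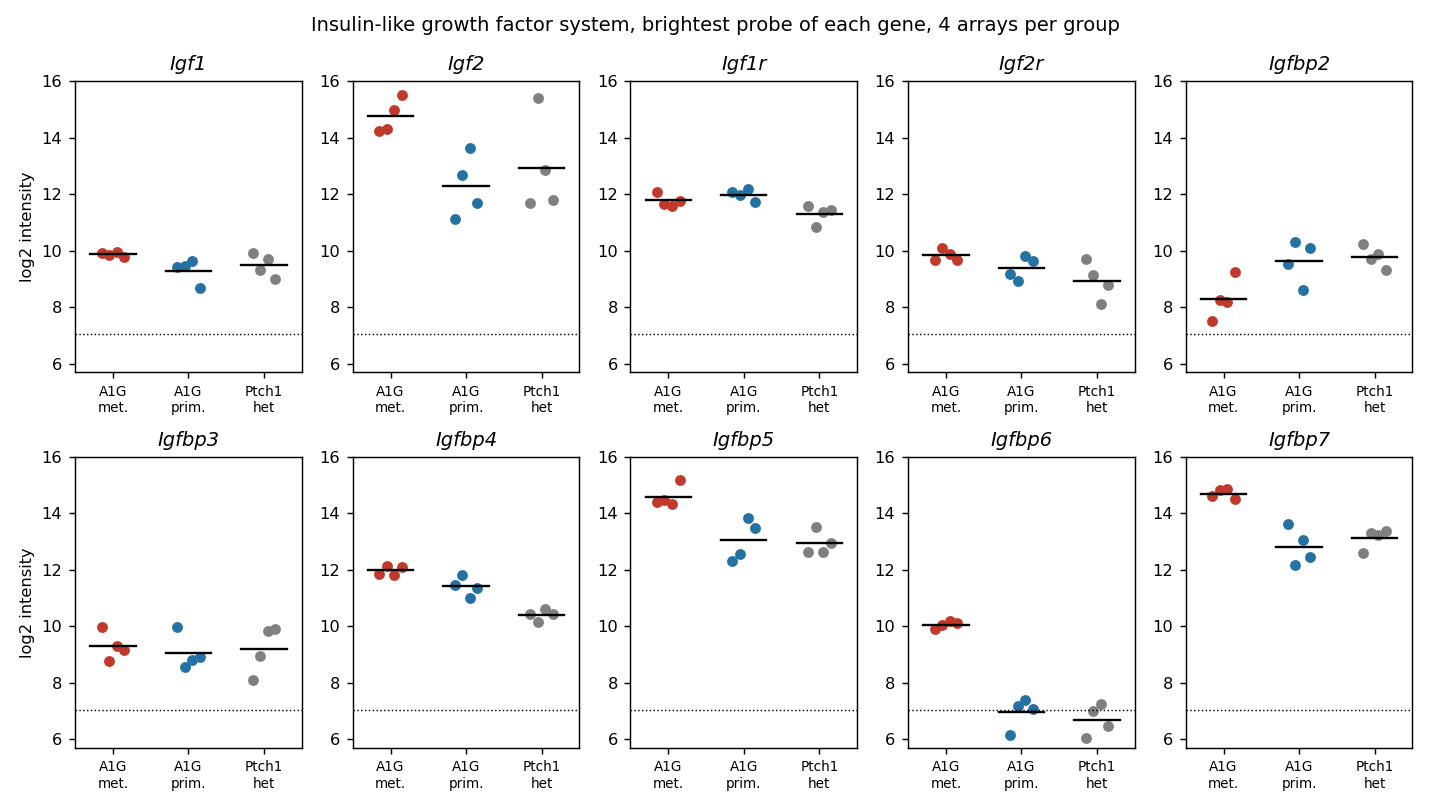
Log2 intensity of the brightest probe of each of the 10 genes (y axis) in A1G metastatic, A1G primary and Ptch1het tumours (x axis), 1 point per array, with a bar at the mean of 4 arrays and a dotted line at the array median of 7.05. Igfbp6 lies at 9.90 or above in metastatic tumours and at 7.40 or below in all other arrays, while Ptch1het 2 reaches 15.38 for Igf2.

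Igf2 was measured by 1 probe on chromosome 7. Its log2 intensity was 14.22, 14.29, 14.97 and 15.51 in metastatic tumours, against 11.13, 12.66, 13.62 and 11.69 in primary A1G tumours. Every metastatic value lay above every primary value, and the primary tumours themselves spanned 11.13 to 13.62. The log2 difference was 2.47 (SE 0.73, 95% interval 0.88 to 4.06), or 5.55-fold, and it did not pass in limma (adjusted p = 0.0811). The Ptch1het tumours enter this test through the shared spread, and Ptch1het 2 stood far above the other 3 of its group, at 15.38 against 11.68, 12.85 and 11.78. Without Ptch1het 2 the metastatic minus primary difference passed (adjusted p = 0.0107), and leaving out each array in turn gave adjusted p-values between 0.0107 and 0.189 in limma. Metastatic and primary tumours with the same replicate number deviated together, so these numbers were read as pairs. This reading rests on correlations between arrays alone (0.17 to 0.45), and the main fit, which gave the calls, holds no term for pairs. Same-number arrays of A1G primary and Ptch1het tumours, which differ in genotype, also reached 0.33, so correlations of this size do not establish pairs. The 4 pairs differed by 1.34 to 3.82 on the log2 scale. Because the groups did not overlap, any pairing would be higher in 4 of 4, so the direction within pairs adds nothing. With only these 8 arrays the adjusted p in limma was 0.0169. With the replicate number as a block as well it was 0.00767, a setting chosen after seeing the data. With the block in the fit of 3 groups Igf2 did not pass.

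H19, a noncoding RNA imprinted in the opposite sense to Igf2, lies near it on chromosome 7, with 2 annotated genes between them, of which 0 are protein-coding. Its log2 intensity was 12.40, 11.39, 13.57 and 11.09 in metastatic tumours, against 7.82, 7.47, 8.86 and 8.04 in primary A1G tumours. The groups did not overlap. H19 rose 16.7-fold, a difference of 4.07 on the log2 scale (SE 0.55, adjusted p = 0.000618 in limma), and its other tested probe passed in the same direction. The pairs differed by 3.05 to 4.72. The order of the metastatic tumours differed between the neighbours: metastatic 4 had the highest Igf2 level and the lowest H19 level of its group.

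**Figure D2:**
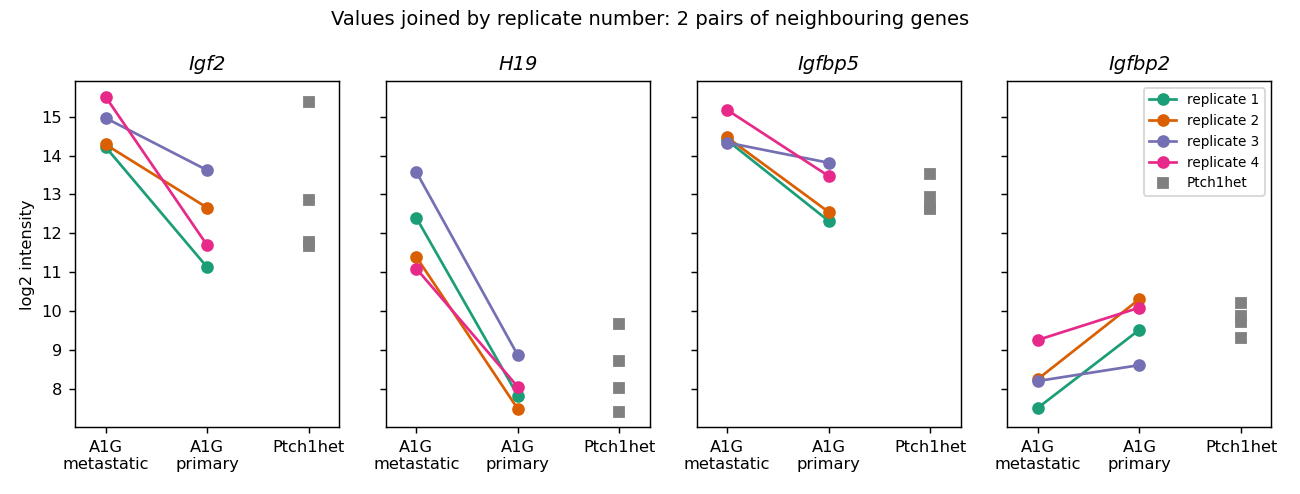
Log2 intensity (y axis) of Igf2, H19, Igfbp5 and Igfbp2 (brightest probe of each), with A1G metastatic and A1G primary tumours of the same replicate number joined by lines and the 4 Ptch1het tumours as grey squares. Igf2, H19 and Igfbp5 are higher and Igfbp2 lower in the metastatic tumour of each of the 4 pairs. For Igf2, H19 and Igfbp5 the groups do not overlap, so any pairing would show this.

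Igf1, the second ligand, was read by 3 probes on chromosome 10. The brightest, ILMN_1225565, read 9.92, 9.83, 9.95 and 9.78 in metastatic tumours, against 9.40, 9.44, 9.64 and 8.68 in primary A1G tumours. The groups did not overlap, but the log2 difference of 0.58 (SE 0.22, 95% interval 0.09 to 1.07) did not pass in limma (adjusted p = 0.195). The other Igf1 probes differed by 0.47 and 0.34 (adjusted p = 0.279 and 0.321 in limma), both with groups that overlapped.

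The receptors were measured with smaller differences. Igf1r (chromosome 7), which signals for both ligands, read 12.09, 11.66, 11.59 and 11.77 in metastatic tumours, against 12.06, 11.95, 12.17 and 11.71 in primary A1G tumours on probe ILMN_1249824. The groups overlapped, with a log2 difference of -0.20 (SE 0.18, 95% interval -0.58 to 0.19, adjusted p = 0.618 in limma), and -0.35 on the second probe (adjusted p = 0.503 in limma). Igf2r (chromosome 17), which clears Igf2 and sorts lysosomal enzymes, read 9.68, 10.08, 9.88 and 9.66 in metastatic tumours, against 9.18, 8.92, 9.81 and 9.63 in primary A1G tumours on probe ILMN_2931095. These groups overlapped as well, with differences of 0.44 (95% interval -0.19 to 1.08) and 0.21 on the 2 probes (adjusted p = 0.469 and 0.695 in limma).

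Igfbp6, a binding protein known for its preference for Igf2, was separated between the groups on every array. Its single probe (chromosome 15) read 9.90, 10.03, 10.18 and 10.13 in metastatic tumours, against 6.16, 7.18, 7.40 and 7.07 in primary A1G tumours. The 4 metastatic values lay close together, and 1 of the 4 primary tumours was below the array median of 7.05. By group means Igfbp6 rose at least 7.38-fold. This is a bound because the primary mean of 6.95 ± 0.55 (SD, n = 4) lay below that median, so that each primary array was taken at the higher of its own value and the median. The bound concerns dim signal only and does not cover the spread among arrays. The fit itself gave a log2 difference of 3.11 (SE 0.28, 95% interval 2.49 to 3.72, adjusted p = 2.65e-05 in limma), which rests in part on the value below the median. The pairs differed by 2.77 to 3.74.

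Igfbp7, also called Igfbp-rp1, binds IGFs weakly and is known from vessel walls and extracellular matrix. Of its 5 probes 1, on chromosome 5, was tested, and the other 4 were below the array median on all 12 arrays. The tested probe read 14.61, 14.82, 14.85 and 14.51 in metastatic tumours, against 13.62, 12.15, 13.06 and 12.45 in primary A1G tumours. The groups did not overlap, and the level rose 3.67-fold (log2 difference 1.87, SE 0.28, 95% interval 1.27 to 2.48, adjusted p = 0.00125 in limma). The gene therefore rests on 1 of its 5 probes.

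Igfbp5, a secreted protein that binds IGFs and matrix, was measured by 3 probes that all passed. On the brightest, ILMN_2682613, it read 14.39, 14.47, 14.33 and 15.17 in metastatic tumours, against 12.32, 12.55, 13.81 and 13.47 in primary A1G tumours. Primary 3 came nearest to the metastatic range, and the groups did not overlap. Igfbp5 rose 2.94-fold (log2 difference 1.55, SE 0.33, adjusted p = 0.0140 in limma). The other 2 probes gave 1.60 and 1.56 (adjusted p = 0.0158 and 0.0318 in limma). The call was lost on all 3 probes without primary 2 (adjusted p = 0.0529, 0.0570 and 0.109 in limma), and on ILMN_1254358 and ILMN_2964324 also without metastatic 4 (0.0521 and 0.0925) or primary 1 (0.0514 and 0.0903). ILMN_2964324 lost it without metastatic 1 (0.0802) or metastatic 2 (0.0747) as well.

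Igfbp2, an abundant IGF carrier of the developing brain and of glia, was the member that fell. On its dimmer probe, ILMN_1236788, it read 7.36, 7.81, 8.03 and 8.60 in metastatic tumours, against 9.19, 10.18, 8.63 and 9.99 in primary A1G tumours. Metastatic 4 and primary 3 nearly met, and the groups did not overlap. It fell by 1.55 on the log2 scale (SE 0.35, adjusted p = 0.0192 in limma), which was 2.93-fold lower. The brighter probe, ILMN_2930897, read 7.51, 8.25, 8.20 and 9.25 in metastatic tumours, against 9.52, 10.31, 8.61 and 10.09 in primary A1G tumours. These values overlapped and the difference of -1.33 did not pass (adjusted p = 0.0786 in limma). It passed with the replicate block and only these 8 arrays (0.0274), a setting chosen after seeing the data, but with neither change alone. It also passed without metastatic 4 (0.0257) or primary 3 (0.0217), and the mean of the Igfbp2 probes passed (adjusted p = 0.0353 in limma). The call on ILMN_1236788 was lost without metastatic 1 (0.0535), metastatic 2 (0.0626), primary 2 (0.0663) or primary 4 (0.0667).

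Igfbp3 and Igfbp4 completed the set. Igfbp4, which releases IGFs when cut by the protease Pappa, read 11.86, 12.12, 11.82 and 12.11 in metastatic tumours, against 11.48, 11.81, 11.01 and 11.34 in primary A1G tumours on probe ILMN_1258988. The groups barely separated, and the log2 difference of 0.57 (SE 0.17) did not pass (adjusted p = 0.0901 in limma), though it did without primary 2 (0.70, adjusted p = 0.0389). Its second probe differed by 0.26 (adjusted p = 0.638 in limma). Igfbp3, the main IGF carrier of plasma (chromosome 11), read 9.67, 9.09, 9.39 and 9.11 in metastatic tumours, against 9.90, 8.31, 8.49 and 8.49 in primary A1G tumours on its dimmer probe, ILMN_1219335. Primary 1 stood above all 4 metastatic tumours. The difference of 0.52 did not pass in limma (adjusted p = 0.378, but 0.00847 with a difference of 0.88 without primary 1), and that of the brighter probe was 0.23 (adjusted p = 0.821 in limma).

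**Figure D3:**
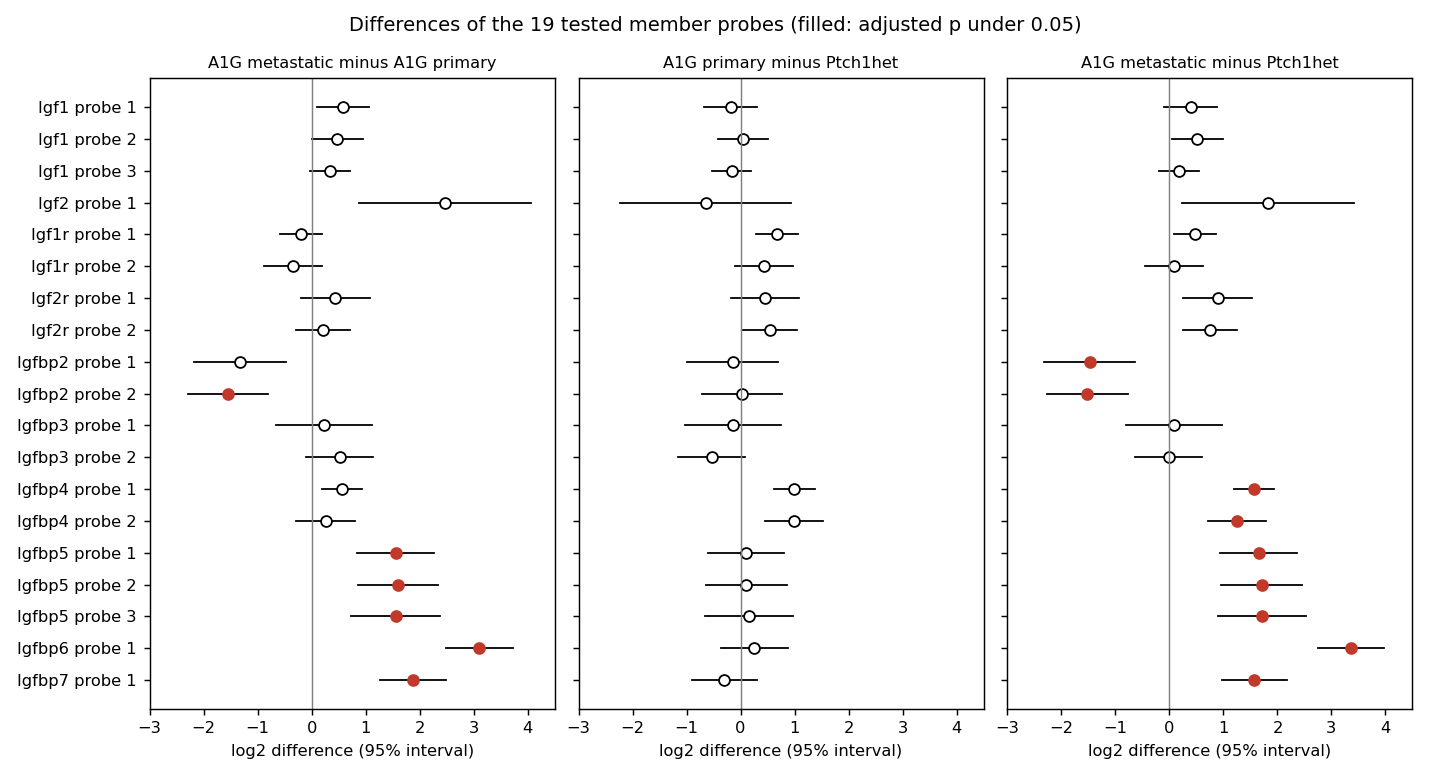
Log2 difference with its 95% interval (x axis) for the 19 tested member probes (rows, the brightest probe of a gene first) in the 3 comparisons, with filled points for adjusted p under 0.05 in limma. Igfbp5, Igfbp6 and Igfbp7 pass on the higher side in both comparisons with metastatic tumours, and 0 probes pass between A1G primary and Ptch1het tumours.

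When A1G primary tumours were set against Ptch1het tumours, 0 of 19 member probes passed in limma, with 4 at an unadjusted p under 0.05, and 0.0245% of all tested probes passed. The groups did not overlap in 3 member probes, all higher in A1G primary tumours, against 6.66% of all tested probes (2.71% higher). These were both Igfbp4 probes and 1 Igf1r probe. The median log2 difference was 0.10 over the member probes and -0.02 over all tested probes.

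Igfbp4 on ILMN_1258988 read 11.48, 11.81, 11.01 and 11.34 in A1G primary tumours, against 10.45, 10.17, 10.60 and 10.44 in Ptch1het tumours. The difference of 1.00 (SE 0.17, 95% interval 0.62 to 1.37), or 2.00-fold, did not pass (adjusted p = 0.110 in limma), nor did that of 0.99 on the second probe (0.197). Igf1r on ILMN_1249824 read 12.06, 11.95, 12.17 and 11.71 in A1G primary tumours, against 11.58, 10.83, 11.35 and 11.43 in Ptch1het tumours. Its difference was 0.68 (SE 0.18, 95% interval 0.29 to 1.06, adjusted p = 0.219 in limma), and 0.43 on the second probe, where the groups overlapped (adjusted p = 0.468 in limma).

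Igf2 differed by -0.65 between A1G primary and Ptch1het tumours (SE 0.73, 95% interval -2.23 to 0.94, adjusted p = 0.725 in limma), and by 0.17 without Ptch1het 2. The 3 passing genes Igfbp5, Igfbp6 and Igfbp7 of the metastatic comparison gave intervals that spanned 0 here: -0.61 to 0.81 for Igfbp5 on its brightest probe, -0.36 to 0.87 for Igfbp6 and -0.91 to 0.30 for Igfbp7. Igfbp2 spanned -0.72 to 0.77 on ILMN_1236788. The remaining members had adjusted p-values of 0.353 or more in limma.

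The comparison of metastatic A1G with Ptch1het tumours, where genotype differs as well as metastatic against primary status, shares its metastatic arrays with the first comparison, so its values stand beside those and add no independent evidence. Here 9 of 19 member probes passed in 5 genes, 7 higher and 2 lower, against 8.8% of all tested probes (5.36% higher, 3.44% lower). The groups did not overlap in 10 member probes, against 14.9% of all tested probes, and the median difference was 0.75 against -0.09 over all tested probes.

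Igfbp4 passed here. Its brightest probe read 11.86, 12.12, 11.82 and 12.11 in metastatic tumours, against 10.45, 10.17, 10.60 and 10.44 in Ptch1het tumours, and the groups lay well apart. It rose 2.95-fold (log2 difference 1.56, SE 0.17, adjusted p = 0.000110 in limma), and the second probe by 1.25 (adjusted p = 0.00915 in limma, 0.0504 with only metastatic 1 and 4).

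The binding proteins of the first comparison passed as well. Igfbp6 read 9.90 to 10.18 in metastatic tumours, against 6.04, 7.00, 7.26 and 6.48 in Ptch1het tumours, 3 of which were below the array median. Its level rose at least 7.77-fold by the same bound on group means (10.06 and 6.70). The fit itself gave a log2 difference of 3.36 (adjusted p = 1.31e-05 in limma). The 3 Igfbp5 probes rose by 1.66, 1.71 and 1.71 (adjusted p = 0.00866, 0.00939 and 0.0152 in limma). Igfbp7 rose 2.98-fold (adjusted p = 0.00433 in limma, 0.0655 with only metastatic 1 and 4), with 12.58, 13.30, 13.24 and 13.37 in the Ptch1het tumours.

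Igfbp2 differed from Ptch1het tumours on both probes, with 9.37, 9.54, 9.96 and 9.01 in the Ptch1het tumours on ILMN_1236788, all above the metastatic values. It fell by 1.52 there (adjusted p = 0.0172 in limma, 0.0547 without metastatic 2) and by 1.48 on ILMN_2930897 (adjusted p = 0.0355 in limma). The call on ILMN_2930897 was lost without metastatic 1 (0.0768), metastatic 2 (0.0917), metastatic 3 (0.0619), Ptch1het 1 (0.0887), Ptch1het 2 (0.0580) or Ptch1het 3 (0.0701). It was also lost with the replicate block and only these groups (adjusted p = 0.0934 in limma).

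The ligands and receptors did not pass against Ptch1het tumours. Igf2 differed by 1.83 (SE 0.73, adjusted p = 0.134 in limma) with groups that overlapped through Ptch1het 2, and by 2.65 without that array (adjusted p = 0.0102). The 2 Igf2r probes differed by 0.89 and 0.75 (adjusted p = 0.0757 and 0.0632 in limma), and both passed without Ptch1het 1 (0.0273 and 0.0240). Igf1r on ILMN_1249824 differed by 0.48 (adjusted p = 0.111 in limma), with groups that did not overlap. The 3 Igf1 probes differed by 0.18 to 0.52 and the 2 Igfbp3 probes by -0.01 and 0.09.

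Further genes of the system were read from 3 lists, each gene by its brightest tested probe. Of 31 tested signalling partners (36 listed) 1 rose in metastatic against A1G primary tumours and 0 fell, against 5.14% of all genes taken this way that passed and 4.44% that rose (median -0.04, against -0.06 over all genes). The adaptor Shc1, which links Igf1r to the Ras pathway, read 12.84, 13.11, 12.88 and 12.85 in metastatic tumours, against 12.08, 11.97, 12.06 and 11.66 in A1G primary tumours. These groups were separated, and Shc1 rose 1.96-fold (SE 0.19 on the log2 scale, adjusted p = 0.00859 in limma, 0.116 with only metastatic 1 and 4). Grb10, an imprinted adaptor that restrains Igf1r and insulin receptor signalling, read 10.11, 10.24, 10.22 and 10.43 in metastatic tumours, against 8.69, 7.79, 8.18 and 9.68 in A1G primary tumours. Its groups did not overlap and its difference of 1.66 did not pass (adjusted p = 0.0520 in limma). Grb10 passed with only these 8 arrays (0.0177), and with the replicate block as well (0.00767), a setting chosen after seeing the data. The adaptors Gab1 and Grb2 differed by -0.39 and -0.23 (adjusted p = 0.407 and 0.496 in limma).

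Of 20 tested proteases and carriers (23 listed) 6 rose and 0 fell in metastatic against A1G primary tumours, where 4.44% of all genes rose. The median difference was 0.34. Ccn2 (Ctgf in the deposited annotation), a matrix protein of the CCN family with an IGF-binding domain, read 13.71, 13.47, 13.46 and 13.63 in metastatic tumours, against 10.31, 10.68, 10.94 and 10.03 in A1G primary tumours. Its groups lay far apart and it rose 8.43-fold (log2 difference 3.07, adjusted p = 9.95e-05 in limma). Its relatives Ccn4 (Wisp1) and Ccn1 (Cyr61) also rose, given here by the bound on group means used for Igfbp6. Ccn4 rose at least 3.84-fold against a primary group below the array median (means 8.99 and 6.88). Ccn1 rose by at least 0.59 on the log2 scale against a primary group with 1 of 4 arrays above that median (means 7.66 and 6.58), with groups that overlapped. Their adjusted p-values in limma (7.67e-05 for Ccn4 and 0.0438 for Ccn1) belong to the fitted differences, not to these bounds. Mmp2, a gelatinase that can cut IGF binding proteins, rose 2.21-fold (adjusted p = 0.00349 in limma). Htra1, a serine protease known to cut Igfbp5, rose by 0.95 (adjusted p = 0.0359 in limma). Esm1, an endothelial proteoglycan, rose by 2.24 (adjusted p = 0.0438 in limma). The calls of Esm1, Ccn1 and Htra1 were each lost without metastatic 2 or primary 4, among other arrays, with adjusted p-values up to 0.141, 0.141 and 0.121, and the count of the list lay between 3 and 6 with each array left out.

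Of 9 tested regulators of Igf2 imprinting and mRNA (14 listed) 1 rose against A1G primary tumours, H19, and 0 fell, with a median of 0.06. Of all genes 4.44% rose in that comparison. Against Ptch1het tumours the counts in metastatic tumours were 1 of 31, 5 of 20 and 2 of 9 higher and 0 lower, against 9.29% of all genes that passed and 5.98% that rose. Shc1 rose by 0.82 (adjusted p = 0.0183 in limma, 0.0645 without metastatic 2) and H19 12.6-fold (0.00141). By the bound on group means, Ccn4 rose at least 3.79-fold against a Ptch1het group with 2 of 4 arrays above the array median (means 8.99 and 7.01). Ccn2 (2.76), Mmp2 (1.05) and Htra1 (1.12) rose on the log2 scale, and Igfbpl1 by 0.65 with an adjusted p of 0.0455 in limma that most other settings moved past the threshold. Ndn, an imprinted growth regulator of neurons, rose by 1.24 against Ptch1het tumours (adjusted p = 0.00446 in limma), while its difference from A1G primary tumours was 0.49 (adjusted p = 0.268). Between A1G primary and Ptch1het tumours 0 genes passed in the 3 lists, where 0.0359% of all genes did.

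**Figure D4:**
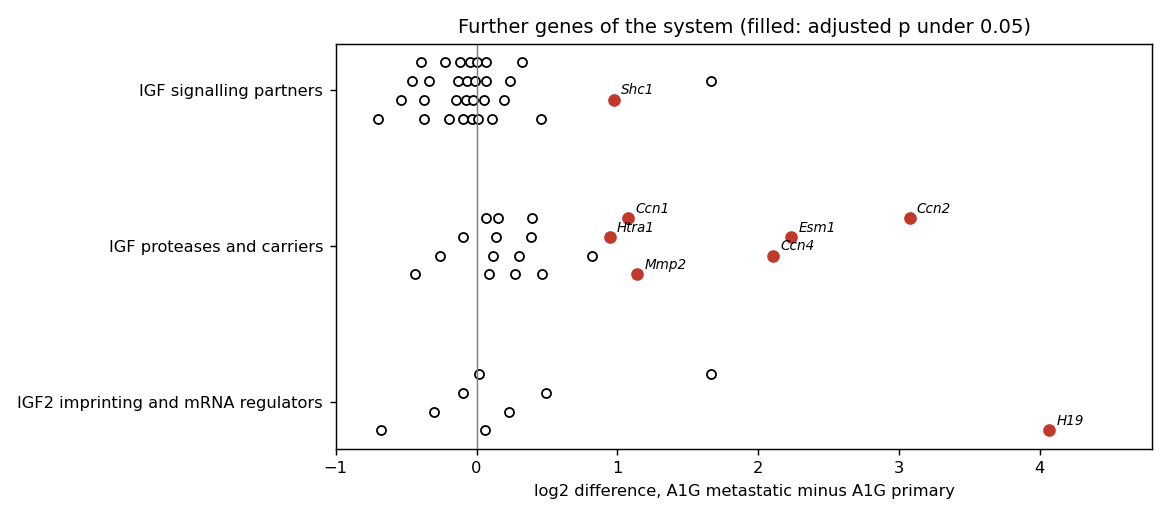
Log2 difference between A1G metastatic and A1G primary tumours (x axis) for the tested genes of 3 lists (rows), 1 point per gene at its brightest probe, filled and named where the adjusted p in limma is under 0.05. The 6 filled genes among proteases and carriers and H19 all lie on the higher side. Vertical spread within a row only separates the points.

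Marker genes of other cell types moved with these results, and in bulk tissue fewer cells of a type and less RNA per cell cannot be told apart. The marker counts here and below stand beside the shares of all genes read by their brightest probe. Of these, 5.14% passed against A1G primary tumours (4.44% rose) and 9.29% against Ptch1het tumours (5.98% rose). Summed over 14 of 14 fibroblast markers, the linear signal was 76516 to 87304 in metastatic tumours, against 10693 to 22684 in A1G primary and 13945 to 26140 in Ptch1het tumours, and 8 of the 14 rose against A1G primary tumours. Schwann cell markers summed to 17098 to 21817 in metastatic tumours, against 4739 to 7013 in A1G primary and 2783 to 5133 in Ptch1het tumours (10 of 10 on the array, 6 of 9 tested rose against A1G primary, Foxd3 below the array median on every array). Sensory neuron markers (10 of 10, with 9 of 9 tested higher than in A1G primary) summed to 23992 to 57392 in metastatic tumours, against 1261 to 1692 in A1G primary and 1197 to 2504 in Ptch1het tumours. Mural cell markers (10 of 10) summed to 9470 to 66796 in metastatic tumours, against 2705 to 5138 in A1G primary and 2540 to 6386 in Ptch1het tumours. The highest mural sum was that of metastatic 2, the other 3 metastatic tumours lay between 9470 and 14036, and of 9 mural genes tested against A1G primary tumours 2 rose, 1 fell and 6 did not pass.

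Astrocyte markers (9 of 9) had sums of 26471 to 41713 in metastatic tumours, against 45565 to 69416 in A1G primary and 32096 to 69485 in Ptch1het tumours. Of 8 astrocyte genes tested 1 fell and 7 did not pass in metastatic tumours against each of the other groups, with a median log2 difference of -0.48 from A1G primary and -0.47 from Ptch1het tumours. Microglia and macrophage markers (12 of 12, with 2 of 11 tested higher than in A1G primary, Itgam below the array median on every array) summed to 33845 to 41932 in metastatic tumours, against 18571 to 31852 in A1G primary and 19349 to 38083 in Ptch1het tumours. Of 8 skeletal muscle genes tested 6 rose in metastatic tumours against each of the other groups, with a median log2 difference of 3.60 from A1G primary and 3.86 from Ptch1het tumours. Their sums (10 of 10) were 3967 to 80743 in metastatic tumours, with a median of 35926, against 2108 to 19668 in A1G primary and 2955 to 15540 in Ptch1het tumours, so the ranges overlapped while the medians of A1G primary (3885) and Ptch1het (6782) tumours were lower. Of 12 endothelial genes tested 2 rose against each of the other groups, and the sums (12 of 12) were 7816 to 21524 in metastatic, 8672 to 15887 in A1G primary and 6999 to 12986 in Ptch1het tumours. Choroid plexus markers (8 of 9 on the array, 2 of 6 tested higher than in A1G primary, Ttr below the array median on every array) summed to 6071 to 12682 in metastatic tumours, against 1881 to 5881 in A1G primary and 1953 to 7678 in Ptch1het tumours. The labelled tumour type was read from 17 granule progenitor and SHH markers, whose sums overlapped between the 3 groups (81952 to 101288 in metastatic, 85749 to 101793 in A1G primary and 84980 to 91114 in Ptch1het tumours) although Atoh1, Gli1 and Mycn were not above the array median on any array. Ptch1het 2, the array with the high Igf2 level, had a fibroblast sum of 18646, within its group, and the highest muscle sum of its group, 15540. The part of any of these cell types in the member results was not tested.

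Across the 12 arrays the genes most like each member were listed as a description, by Pearson correlation over 12904 genes with its brightest probe. All points share the 3 groups, so the correlation after removal of the group means is given beside it. Igfbp6 was most like Ogn (r = 0.99, and 0.95 within groups), a small proteoglycan on the fibroblast list, then Serpinf1 (0.98 and 0.78) and Plekha4 (0.97 and 0.47). Igfbp7 was most like Pthlh (0.96 and 0.86), the pericyte receptor Pdgfrb (0.96 and 0.78) and Synpo (0.96 and 0.85). Igf1 was most like Aif1 (0.92 and 0.90), Ms4a7 (0.91 and 0.84) and Mpeg1 (0.90 and 0.84), all 3 known from macrophages. Igfbp2 was most like Cspg5 (0.93 and 0.90), Gadd45gip1 (0.92 and 0.85) and Timp4 (0.92 and 0.82).

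Igf2 was most like Megf10 (0.92 and 0.89), Cpxm1 (0.91 and 0.85) and Tgfbr1 (0.90 and 0.91). Igfbp5 was most like Errfi1, Ahnak and Nefm (each 0.94, and 0.76 to 0.77 within groups). Igfbp4 was most like Jakmip1 (0.93 and 0.65), Lama2 (0.91 and 0.38) and Grn (0.91 and 0.56). Igf1r was most like Nfia (0.93 and 0.82), Ctdsp2 (0.93 and 0.85) and Gpx2 (0.90 and 0.81), and Igf2r was most like Rps6ka4 (0.92 and 0.86), Prr13 (0.89 and 0.82) and 5033430I15Rik (0.88 and 0.88). Among the members themselves the closest pair was Igfbp5 and Igfbp6 (r = 0.89 over 12 arrays, 0.52 with the group means removed), and the most opposed pair was Igfbp2 and Igfbp7 (r = -0.83, and -0.57 with the group means removed), so part of each value is the difference between groups.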

How the data were processed

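The authors deposited 1 table of linear probe intensity (45281 probes), normalized between arrays judging by array medians of 187, by a method not given in the sources used here, without background subtraction. Of a second deposited table only the annotation was read: its 24 per-array columns match no sample label, so the 2 chips of 6 arrays could not be tested as batches. Its detection p-values were not used either. Intensities were corrected by normexp (offset 50, which shrinks folds of dim probes), quantile normalized and put on the log2 scale with limma 3.58.1 (R 4.3.3). Probes above the array median on at least 4 of 12 arrays were kept (24443, 54.0%). One model of 3 groups (lmFit, eBayes; 9 residual and 3.93 prior degrees of freedom) gave each comparison, with Benjamini-Hochberg adjustment over all kept probes, and the fit was tested on simulated data. Array number and dim probes limit precision.

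All member probes are given. List genes were named where they passed (at most 8), with at most 3 direct partners that did not, and 3 genes of highest correlation per member that passed and per ligand and receptor. Updated symbols were matched to RefSeq names. Members and lists were chosen with earlier results of these data known. After removal of group means, A1G metastatic and A1G primary arrays of the same number correlated at 0.17 to 0.45 (other numbers -0.32 to 0.16). These numbers were read as pairs on that ground alone, and the main model has no term for them. Same-number arrays of A1G primary and Ptch1het tumours correlated at -0.02 to 0.33 (other numbers -0.21 to 0.22). Those of metastatic and Ptch1het tumours correlated at -0.06 to 0.10 (other numbers -0.18 to 0.18). Both ranges overlapped those of other numbers, so neither was read as pairs. Alternatives were other scalings, filters, probe summaries, a replicate block, fewer groups and leaving out arrays.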

Additional observations from a re-analysis of the deposited data

Results flagged for a closer look

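In 5 of the 57 groups of 4 arrays examined (19 member probes in 3 groups), 1 array stood apart from the other 3 by Dixon's criterion. Chance flags about 1 in 20 groups. Igfbp3 on ILMN_1219335 read 9.90 in primary 1, against 8.49 for the next array of its group. Igfbp5 on ILMN_2682613 read 15.17 in metastatic 4, against 14.47. Igfbp4 on ILMN_2694955 read 10.03 in Ptch1het 1, against 9.57, and Igfbp7 on ILMN_2764588 read 12.58 in the same tumour, the lowest of its group, against 13.24. Igf1 on ILMN_2647594 read 7.86 in Ptch1het 2, against 7.54. The Igf2 level of Ptch1het 2 (15.38) did not meet this criterion.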

How the results depend on the processing

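The 19 member probes kept their direction between metastatic and primary A1G tumours under every alternative run. Counts moved more. Among all probes, 1179 passed between metastatic and A1G primary tumours, 1314 with a replicate block in the fit of 3 groups, 2197 with the replicate block and only these groups (chosen after seeing the data), 532 when a probe had to exceed the median of every one of the 12 arrays, 533 with metastatic replicates 1 and 4 alone, and 783 (without metastatic 2) to 1288 with each array left out. Of the member probes 6 passed, 8 with the replicate block and only these groups, 3 with 1 probe per gene (10 tested), and 3 (without primary 2) to 7 with each array left out. Apart from Igf2, Igfbp2 and Grb10, the replicate block and only 2 groups changed no call of a member or a named list gene in this comparison. With the block in the fit of 3 groups, Grb10 passed (adjusted p = 0.0476 in limma) and Ccn1 did not (0.0628). Between A1G primary and Ptch1het tumours 6 probes passed, 3 under that stricter filter, 3 with the replicate block and only these groups, 5 with the block alone, and 4 to 43 (43 without Ptch1het 4, 10 without Ptch1het 2) with each array left out. Against Ptch1het tumours 2150 probes passed in metastatic tumours, 2497 with the replicate block, 1280 with only these groups, 986 with both, 733 with metastatic 1 and 4 alone, and 1031 (without metastatic 2) to 2224 with each array left out. Of the member probes 9 passed there, 5 with 1 probe per gene, 5 with the mean of the probes of a gene, 5 with only metastatic 1 and 4, and 7 to 10 with each array left out. The replicate block and only 2 groups removed the calls against Ptch1het tumours for Mmp2 (adjusted p = 0.0536 in limma), Shc1 (0.0558) and Igfbpl1 (0.166). Esm1 passed under that setting (0.0213).

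With only metastatic 1 and 4, the calls against A1G primary tumours were lost for Igfbp2 (adjusted p = 0.169 in limma), Igfbp5 on ILMN_2682613 (0.0733), Htra1 (0.242), Ccn1 (0.225) and Esm1 (0.0810), and against Ptch1het tumours for Igfbp2 (0.113 and 0.174), Htra1 (0.0903), Ndn (0.0695) and Shc1 (0.132). Igfbp6 kept its calls under every alternative in which it was tested, and it was not tested under the stricter filter.

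Signs turned in small differences that had not passed. With the mean of the probes of a gene, the A1G primary minus Ptch1het difference was -0.10 for Igf1 and -0.061 for Igfbp2, and the metastatic minus Ptch1het difference was 0.039 for Igfbp3 (0.061 with only metastatic 1 and 4). With each array left out, the A1G primary minus Ptch1het difference ranged from -0.35 to 0.020 and from -0.11 to 0.22 for 2 Igf1 probes, from -1.10 to 0.17 for Igf2, from -0.37 to 0.19 and from -0.20 to 0.32 for Igfbp2, from -0.50 to 0.11 for 1 Igfbp3 probe, and from -0.16 to 0.34, -0.12 to 0.32 and -0.050 to 0.40 for Igfbp5. The metastatic minus Ptch1het difference ranged from -0.14 to 0.19 for 1 Igf1r probe and from -0.13 to 0.061 and -0.27 to 0.33 for Igfbp3. For changes made by leaving out arrays, fewer samples are part of the alternative; otherwise the cause was not tested. Signal near the array median limits Igfbp6, Ccn1 and Ccn4 outside the metastatic tumours.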
